A study of Mus musculus with 6 samples.

Results

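Cytosolic ribosomal protein genes were followed on expression arrays of fetal liver cells sorted as erythroid progenitors. Wild-type-labelled arrays were set against arrays labelled as Eklf knockout. The members were every probe set annotated alone to a gene whose symbol marks a protein of the large subunit (Rpl followed by a number, or Rplp0, Rplp1 and Rplp2) or of the small subunit (Rps followed by a number, or Rpsa), with single letters such as a, x or l allowed at the end. A probe set is a group of short oligonucleotides on the array that report 1 transcript or a few similar ones. The rule chose by name alone and used no measured value. It found 100 of 45101 probe sets and 46 of 18193 named genes, 24 of the large and 22 of the small subunit. RefSeq holds 81 protein-coding genes with such a symbol. Of these, 45 had a probe set of their own, 28 were listed only together with other genes, among them Rpl5, Rps12 and Rplp1, and 8 had no entry in the annotation used here. The remaining member, Rps4l, is a transcribed pseudogene in RefSeq.

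Each gene was represented by its brightest probe set on average over the 6 arrays, and 44 of the 46 genes passed the filter on dim signals, a mean log2 signal of 6.62 (a signal of 98.6). The exceptions were Rpl3l, with signals from 8.85 to 57.0, and Rps16, with signals from 2.16 to 20.5 on the only probe set listed for it alone. Of the 100 probe sets, 92 passed.

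The samples were RNA from 3 wild-type and 3 Eklf -/- fetal livers at embryonic day 13.5, all given as strain C57BL/6. The submitters' notes trace the knockout allele to strain 129 clones that were injected into C57BL/6 blastocysts. Eklf, gene symbol Klf1, is a zinc finger transcription factor of red cells that binds CACCC sequences. Cells described as early erythroid progenitors were sorted with antibodies to CD71 and Ter119 and the dead-cell dye 7AAD. From each sample, 10 micrograms of total RNA went onto 1 single-colour Affymetrix array. The position of the deletion in Klf1 relative to its probe set is not given in the sources used here. Signals for Klf1 read 2508, 2706 and 4030 in the wild-type-labelled samples, then 3505, 1391 and 2545 in the knockout-labelled samples (log2 difference -0.38, limma adjusted p = 0.347), so the groups overlapped and this probe set does not check the labels. The arrays are therefore called wild-type-labelled and knockout-labelled here.

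A ribosome has a small subunit, which reads the messenger RNA, and a large subunit, which joins the amino acids. Each cytosolic ribosomal protein is usually needed in matched amounts, and the messenger RNAs of these proteins open with a run of pyrimidines, the terminal oligopyrimidine (TOP) tract, through which mTOR signalling sets their translation. Red cell progenitors make many ribosomes before they condense their nuclei, and loss of 1 copy of certain ribosomal protein genes causes Diamond-Blackfan anaemia, a failure of red cell production.

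The start sites of several members are shown because the pyrimidine run is the sequence feature that defines this family's messenger RNAs. Each window runs 5′ to 3′ on the gene's strand, from 30 bases before the annotated start to 25 bases from it, and comes from RefSeq on GRCm38.p6. Capitals mark a run of at least 5 letters C or T that opens with C within 2 bases of the start. Rpl27a, Rpl13a, Rplp2, Rpl7a and Rps10 were among the genes that rose, Rps6 fell, and Rps9, which has no such run at its start, is the gene with the largest difference at a single probe set.
Rpl27a, chr7:109519165-109519219, plus strand: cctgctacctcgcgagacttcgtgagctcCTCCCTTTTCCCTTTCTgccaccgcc
Rpl13a, chr7:45128721-45128775, minus strand: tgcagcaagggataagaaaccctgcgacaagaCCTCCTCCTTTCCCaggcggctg
Rplp2, chr7:141447621-141447675, plus strand: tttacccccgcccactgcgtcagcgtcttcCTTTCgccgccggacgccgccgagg
Rpl7a, chr2:26910777-26910831, plus strand: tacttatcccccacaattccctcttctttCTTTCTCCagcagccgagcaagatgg
Rps10, chr17:27635220-27635274, minus strand: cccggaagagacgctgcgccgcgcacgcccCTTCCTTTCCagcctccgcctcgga
Rps6, chr4:86857343-86857397, minus strand: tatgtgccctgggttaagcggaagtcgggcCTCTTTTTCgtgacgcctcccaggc
Rps9, chr7:3704011-3704065, plus strand: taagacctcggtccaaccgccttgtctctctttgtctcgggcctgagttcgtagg

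RefSeq promoters, 250 bases before to 50 bases after the start, were found for 40 of the 46 genes, with 48 starts. A pyrimidine run at the start was present in 14 of these 48 starts (29.2%), against 8.69% of 21262 starts of all protein-coding genes. The tested genes with a run had a median log2 difference of 0.67 (14 genes) and those without of 0.61 (24 genes). An annotated start a few bases away from the one used in these cells would hide a run from this search.

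CACCC, the core of the sequence that Eklf binds, was searched on both strands in the same promoters. It was present in 47.9% of the members' starts and in 54.2% of all starts. The longer CCACACCC, which contains CACCC, was present in 4.17% and 3.32%. GGGCGG, a GC box, was present in 43.8% of the members' starts and 42.6% of all. The median log2 difference was 0.68 for 18 tested genes with CACCC and 0.59 for 20 without. The bases before the start of the 2 genes with the largest increase are shown with CACCC, or its reverse complement GGGTG, in capitals. Each window holds the 150 bases before the start on the gene's strand.
Rpl27a, chr7:109519045-109519194, plus strand: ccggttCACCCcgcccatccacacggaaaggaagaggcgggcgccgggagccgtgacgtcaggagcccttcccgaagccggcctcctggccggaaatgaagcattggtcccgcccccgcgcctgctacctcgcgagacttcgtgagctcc
Rpl39, chrX:37085223-37085372, minus strand: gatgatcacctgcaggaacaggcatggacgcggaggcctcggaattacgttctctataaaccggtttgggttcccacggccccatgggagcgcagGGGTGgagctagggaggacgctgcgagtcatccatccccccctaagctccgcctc
A match is a description of letters in this window and shows no binding.

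The arrays differed in ways that bear on these genes. Each array had been scaled to a trimmed mean of 500, but the top signal of an array ran from 27367 to 30492 among wild-type-labelled and from 38257 to 78348 among knockout-labelled arrays. The 18 probe sets of the bacterial hybridisation controls, which are spiked in after RNA preparation, were 1.60 to 4.16 times as high on the knockout-labelled arrays. Their mean log2 level relative to the wild-type mean was 0.11, 0.04 and -0.15, then 0.39, 1.65 and 1.90. The ratio of 3′ to 5′ signal, a measure of RNA integrity, ran from 0.819 to 0.881 and from 0.797 to 0.854 for Gapdh. The sorted cells also differed in markers of other cell types. Of 14 hepatocyte genes, 13 were higher, with a summed signal of 8792 to 9560 on the wild-type-labelled and 118712 to 194372 on the knockout-labelled arrays. Of 12 lymphoid genes, 11 were lower (31968 to 39554 against 2807 to 3849), and Cd3e lay under the filter. All 8 megakaryocyte genes, 9 of 10 endothelial and stromal genes and 7 of 9 macrophage genes were higher, and 7 of 10 neutrophil genes were lower. Summed signals were 7465 to 8600 against 33136 to 43183 for megakaryocyte, 2141 to 2498 against 19331 to 28266 for endothelial and stromal, 10515 to 12830 against 12451 to 16488 for macrophage, and 202417 to 234091 against 100483 to 211195 for neutrophil genes. Of 11 erythroid genes, 8 were higher and 1 lower (32321 to 37828 against 84392 to 107051). The log2 difference was 3.93 for Alas2, 1.92 for Slc4a1, 1.91 for Hemgn, 1.89 for Gata1 and 1.68 for Tal1. It was 1.49 for Epor, 1.23 for Rhd, 0.47 for Tfrc and -1.73 for Kit. Ermap and Klf1 did not pass. On the wild-type-labelled arrays the neutrophil sum lay above the erythroid sum, and the lymphoid sum overlapped it. The arrays thus carried strong signal of genes of other cell types. Sums over different genes do not give shares of cells. The part of these array and marker differences in the results below was not tested.

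On the deposited scale most ribosomal protein genes were higher on the knockout-labelled arrays. With limma and adjustment over all 12799 genes tested, 26 of the 44 genes (59.1%) rose, 4 (9.09%) fell and 14 did not pass. Over all genes, 48.7% were called, 27.9% higher and 20.8% lower. The median log2 difference, knockout-labelled minus wild-type-labelled, was 0.60 (1.52-fold), with a range of -1.10 to 1.46, beside 0.14 over all genes. The difference was positive in 38 genes and negative in 6. The groups did not overlap in 25 genes that were higher and 5 that were lower, against 34.1% and 25.2% of all genes (59.3% together). In these bulk samples fewer cells of a type and less RNA per cell cannot be told apart.

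The direction of that result depended on how the arrays were scaled. After quantile normalization, which gives every array the same distribution of signals, 5 genes rose and 6 fell, with a median of -0.07 beside -0.02 over all genes. After centring each array on its median log2 signal, none rose in limma's test, also at an unadjusted p under 0.05, and 6 fell, with a median of -0.21 beside -0.68 over all genes. After cyclic loess, which removes trends with brightness between pairs of arrays, 34 rose and 3 fell, with a median of 0.72 beside 0.00. Over all genes, 17.6% were called higher and 21.1% lower after quantile normalization. The shares were 8.48% and 47.9% after median centring, and 17.9% and 20.8% after cyclic loess. Of the 44 genes, 11.4%, 0% and 77.3% were called higher in these 3 scalings. All 26 genes kept their call after cyclic loess, 5 after quantile normalization (Rpl27a, Rpl39, Rpl41, Rps15 and Rpl37) and none after median centring. A positive sign under each of the 3 scalings was seen in 9 of the 26: Rpl27a, Rpl39, Rpl41, Rps2, Rps15, Rplp0, Rps28, Rps29 and Rpl13a. These 9 were the genes with the largest differences on the deposited scale. The 4 genes that fell stayed negative under all 3. Median centring moved the log2 difference of every gene down by the same amount. A negative difference therefore had to stay negative there, here and in the lists below. The median of the 44 genes lay 0.46 above that of all genes both as deposited and after median centring.

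**Figure D1:**
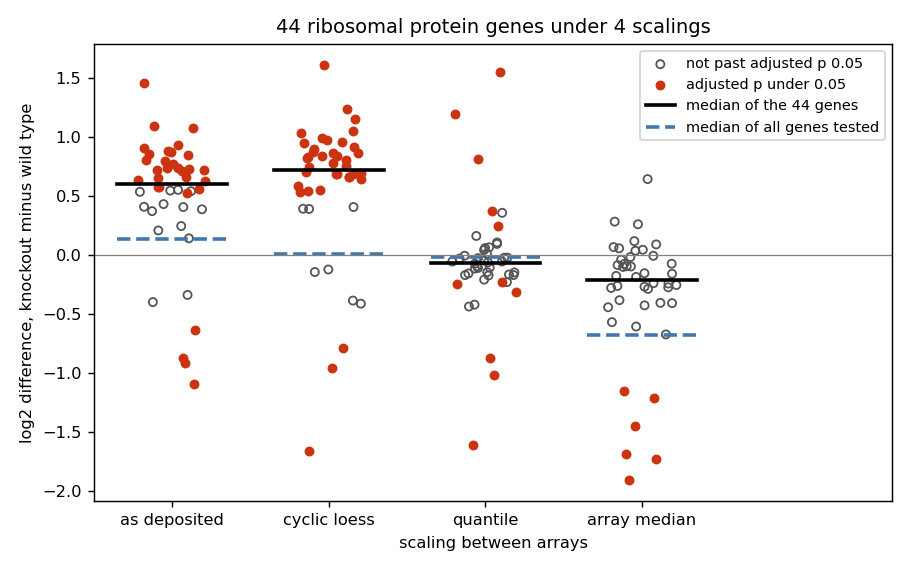
Log2 difference, knockout-labelled minus wild-type-labelled, of the 44 genes (points, filled where the adjusted p was under 0.05) on the deposited scale and after cyclic loess, quantile normalization and median centring, with a solid line for their median and a dashed line for the median of all genes tested. The median of the 44 genes lies at 0.60 on the deposited scale and 0.72 after cyclic loess, and turns to -0.07 after quantile normalization and -0.21 after median centring.

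The rise was uneven among the 3 knockout-labelled arrays. Relative to the wild-type mean, the median log2 level over the 44 genes was -0.08, -0.01 and 0.10 in the wild-type-labelled group and 0.16, 0.76 and 0.89 in the knockout-labelled group. Array 1 of the knockout-labelled group thus lay near the wild-type-labelled arrays, and arrays 2 and 3 lay far above them. Within the knockout-labelled group the hybridisation controls were also lowest on array 1, but they had the opposite order among the wild-type-labelled arrays. With array 1 left out, 36 genes rose (81.8%, beside 27.1% of all genes). Without array 2 or 3, 9 (20.5%) and 11 (25%) rose, beside 22.2% and 22.6% of all genes. The share was then near that of all genes. Without wild-type-labelled array 1, 2 or 3, the count was 12 (27.3%), 12 (27.3%) and 23 (52.3%). The shares of all genes were 21.8%, 24.1% and 25.7%. With array 1 as the lone knockout-labelled array the median was 0.16. That fit takes its spread from the 3 wild-type-labelled arrays alone and assumes that the lone array varies like them, so its calls say little about this array. The calls of 9 of the 26 genes held whichever single array was left out: Rpl27a, Rpl39, Rpl41, Rps2, Rps15, Rps28, Rps29, Rplp2 and Rpl7a. Each of the other 17 calls was lost in at least 1 of these fits.

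**Figure D2:**
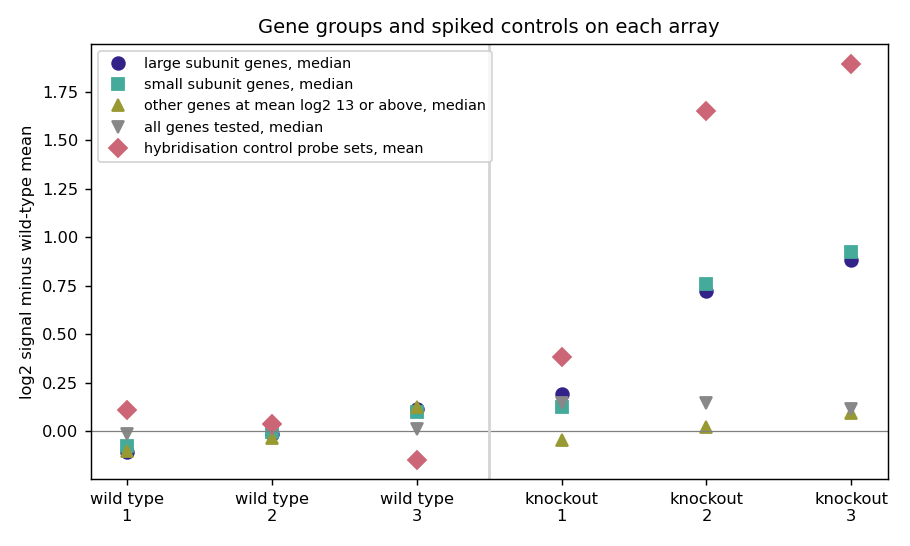
Log2 level on each array relative to the wild-type-labelled mean, as the median over large subunit genes, small subunit genes, other genes with a mean log2 signal of 13 or more and all genes tested, and as the mean over the hybridisation controls. On knockout-labelled arrays 1, 2 and 3 the large subunit lies at 0.19, 0.72 and 0.89, the small subunit at 0.12, 0.76 and 0.92 and the controls at 0.39, 1.65 and 1.90, and the subunit medians of the group difference turn negative under quantile normalization or median centring.

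Brightness and direction went together among the members. All 33 genes with a mean log2 signal of 13 or more were positive, and 23 of them rose (median 0.66). Of the 11 dimmer genes, 3 rose (Rpl27a, Rpl39 and Rpl37) and 4 fell (Rps6, Rps25, Rpl39l and Rps4l), with a median of -0.34. Each of these called genes rested on 1 tested probe set. Whether these dim probe sets report the main transcript of the gene was not tested. Among the 219 other genes with a mean log2 signal of 13 or more the median was 0.03, with 21% called higher and 22.4% lower, and groups that did not overlap in 26% and 30.1%. At 14 or more, 32 ribosomal protein genes had a median of 0.69, and 36 other genes had a median of 0.47 with 18 called higher and 1 lower. These 36 include Rps3a1 and Fau, ribosomal protein genes that the symbol rule does not match. After quantile normalization the medians at this brightness were -0.06 for ribosomal protein and -0.07 for other genes, and after median centring -0.13 and -0.34. The difference between the groups was not tested.

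Both subunits had medians above 0 on the deposited scale. Of 23 large subunit genes, 13 rose and 1 fell, with a median log2 difference of 0.56. Of 21 small subunit genes, 13 rose and 3 fell, with a median of 0.63. The large subunit median was -0.11, -0.02 and 0.12, then 0.19, 0.72 and 0.89, in the same order of arrays, and the small subunit median was -0.07, -0.00 and 0.10, then 0.12, 0.76 and 0.92. On each array the 2 medians lay within 0.07 of each other, less than the spread between knockout-labelled arrays (SD 0.39 over all 44 genes). After quantile normalization the medians were -0.03 and -0.11, and after median centring -0.26 and -0.19, so which subunit was higher depended on the scaling. No test was made of this pair of medians.

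Among large subunit genes the largest increase was in Rpl27a, a structural protein of the large subunit. It read 695, 709 and 748 in the wild-type-labelled samples, then 1136, 2616 and 2574 in the knockout-labelled samples, an order kept for the signals below. Every knockout-labelled array lay above every wild-type-labelled array, and array 1 was the lowest of the 3. The log2 difference was 1.46 ± 0.30 (SE, n = 3 and 3, limma adjusted p = 0.00383). Rpl27a was read from 1 tested probe set with a mean log2 signal of 10.2, dimmer than most members.

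Rpl39 encodes a small protein that lines the tunnel through which the new peptide leaves the ribosome. Its signal was 873, 737 and 703, then 1418, 1556 and 2009, and the groups lay apart. The log2 difference was 1.10 ± 0.19 (limma adjusted p = 0.00155). In contrast to most members, array 1 of the knockout-labelled group stood close to array 2 for this gene.

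Rpl41, which encodes a very short and basic ribosomal peptide, had signals of 20905, 23800 and 23876, then 32650, 52978 and 64210. The knockout-labelled arrays were all higher, with array 1 nearest to the wild-type-labelled group. The log2 difference was 1.07 ± 0.24 (limma adjusted p = 0.0055). Rpl27a, Rpl39 and Rpl41 were the only genes with a called increase of at least 2-fold at their brightest probe set.

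Rpl13a, known for a role outside the ribosome in silencing inflammatory messenger RNAs, had signals of 19942, 19353 and 22826, then 25092, 42598 and 48259, without overlap. Its log2 difference was 0.85 ± 0.24 (limma adjusted p = 0.0161), and the call was lost without wild-type-labelled array 2 and without knockout-labelled array 2 or 3. Rpl4, which reaches into the peptide exit tunnel, had signals of 20835, 23227 and 24658, then 27677, 44217 and 52244, also without overlap. Its log2 difference was 0.81 ± 0.23 (limma adjusted p = 0.0174), and its call was lost without wild-type-labelled array 1 and without knockout-labelled array 2 or 3. The other large subunit genes that rose were Rplp0 and Rplp2, described below, and Rpl7a, Rpl38, Rpl6, Rpl37, Rpl7 and Rpl27, at log2 differences of 0.53 to 0.77. Rpl37 was the only one of these with overlapping groups (4400, 4040 and 5704, then 5501, 8039 and 8617).

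Of the ribosomal stalk, which recruits elongation factors, Rplp0 forms the base and Rplp2 part of the arms. Rplp0 signal was 19006, 20617 and 22054, then 25593, 42612 and 49536, with a log2 difference of 0.88 ± 0.24 (limma adjusted p = 0.0132). Its call was lost without knockout-labelled array 2 (adjusted p = 0.0531). Rplp2 signal was 19032, 18554 and 22781, then 25712, 39344 and 41712, with a log2 difference of 0.80 (limma adjusted p = 0.0115). The groups lay apart in both genes. Rpl12, at the foot of the stalk, had a log2 difference of 0.37 and did not pass (adjusted p = 0.216). Rpl11, which with 5S RNA and Rpl5 can bind Mdm2, had signals of 12803, 12194 and 14456, then 11763, 16942 and 17427. Its lowest value was on a knockout-labelled array, the groups overlapped, and the log2 difference was 0.21 ± 0.18 (limma adjusted p = 0.372).

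Among small subunit genes, Rps2, near the entry of the messenger RNA channel, had the largest increase. Its signal was 19874, 21188 and 21512, then 27556, 44526 and 51253. The groups lay apart and the log2 difference was 0.93 ± 0.22 (limma adjusted p = 0.00835). Rps15, a small subunit protein needed for export of its precursor particle, had signals of 14129, 15642 and 16843, then 20216, 32080 and 37609. It too was higher on every knockout-labelled array, at 0.90 ± 0.23 (limma adjusted p = 0.00986). The other small subunit genes that rose were Rps28, Rps29, Rps20, Rps7, Rps10 and Rps24, described with the disease genes, and Rps18, Rpsa, Rps4x, Rps3 and Rps14, at log2 differences of 0.57 to 0.71. Rpsa, also known as the laminin receptor precursor, had overlapping groups (21947, 24298 and 25657, then 25564, 44149 and 47780).

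**Figure D3:**
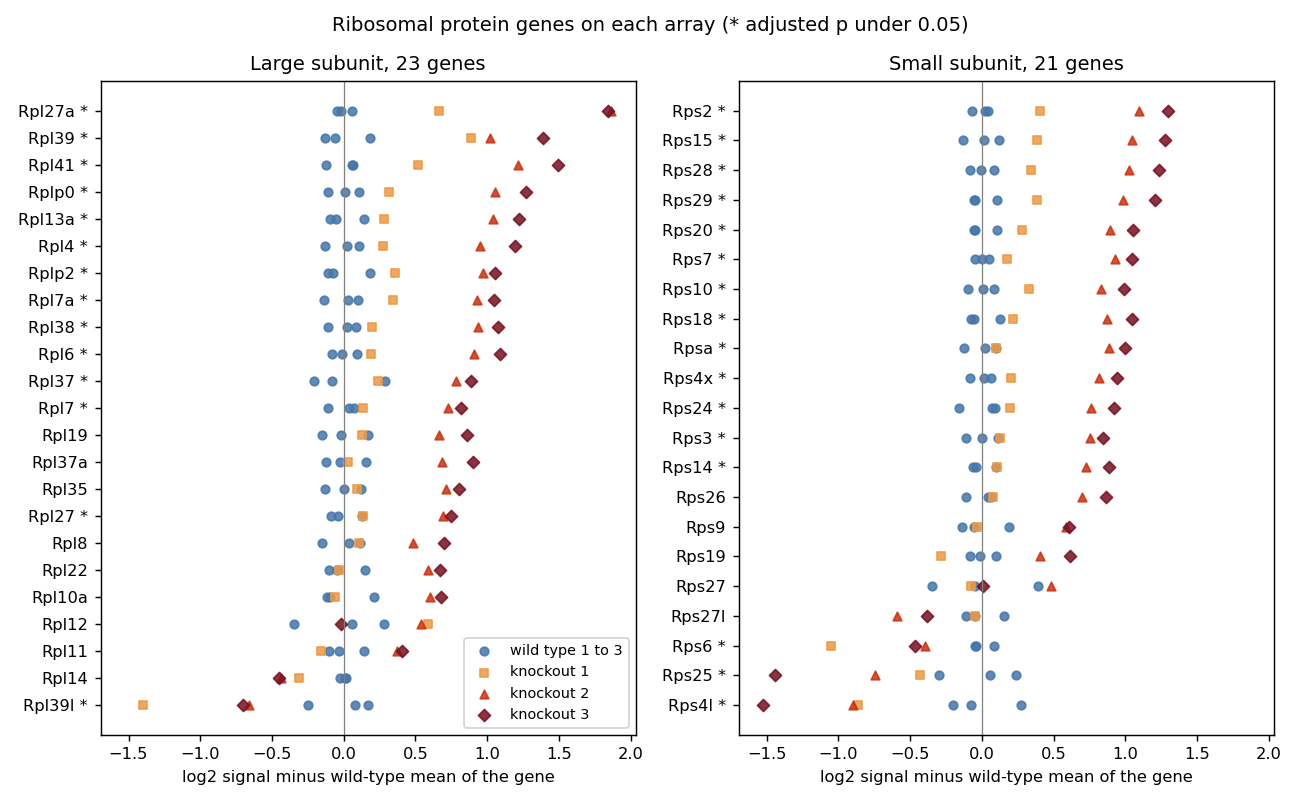
Signal of each of the 44 tested genes on each array, on the horizontal axis as log2 signal minus the gene's wild-type-labelled mean, with large subunit genes on the left, small subunit genes on the right, circles for wild-type-labelled arrays, squares, triangles and diamonds for knockout-labelled arrays 1, 2 and 3, and a star for an adjusted p under 0.05. Most genes are higher on knockout-labelled arrays 2 and 3 than on array 1, while Rps6, Rps25, Rpl39l and Rps4l lie below the wild-type-labelled arrays, and the positive direction turns for many genes under quantile normalization or median centring.

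Genes in which loss of 1 copy causes Diamond-Blackfan anaemia were a list of 22, of which 12 were tested. Of these, 7 rose, none fell and 5 did not pass, with a median log2 difference of 0.59. Among all genes tested 27.9% rose and 20.8% fell, and the share that rose was near the 59.1% of all 44 ribosomal protein genes. Rps29 signal was 22576, 22752 and 25265, then 30654, 46428 and 54363, without overlap, with a log2 difference of 0.86 ± 0.21 (limma adjusted p = 0.00969). Rps28 signal was 19539, 20620 and 21890, then 26262, 42160 and 48721, also without overlap, with 0.87 ± 0.22 (limma adjusted p = 0.0112). Rps20, Rps7, Rps10, Rps24 and Rpl27 rose by log2 differences of 0.74, 0.72, 0.72, 0.63 and 0.53. The call of Rps10 was lost without knockout-labelled array 2 (adjusted p = 0.0519), and those of Rps20, Rps7, Rps24 and Rpl27 without either of knockout-labelled arrays 2 and 3 and wild-type-labelled arrays 1 and 2 (adjusted p from 0.0509 to 0.148).

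Rps19, the gene most often affected in that disease, did not pass. Its signal was 16387, 15641 and 17680, then 13577, 21906 and 25321. The lowest of the 6 values was on knockout-labelled array 1 and the highest on array 3, and the log2 difference was 0.24 ± 0.22 (limma adjusted p = 0.388). Rps26, Rpl35, Rpl11 and Rps27 had log2 differences of 0.55, 0.53, 0.21 and 0.14. In limma's fit none of the 12 genes was called in either direction after quantile normalization or median centring (at an unadjusted p under 0.05, none was higher and 1 lower in each). After cyclic loess 9 were called higher, beside 77.3% of the 44 ribosomal protein genes and 17.9% of all genes.

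The 4 members that fell were Rps4l, Rpl39l, Rps25 and Rps6. Rps4l, a retained copy of the Rps4x sequence, had signals of 1549, 1420 and 1976, then 897, 876 and 567. Every knockout-labelled array lay below every wild-type-labelled array, and the log2 difference was -1.10 ± 0.22 (limma adjusted p = 0.00385). Its call held whichever single array was left out. Rps4x itself, the X-linked main copy, rose (18689, 19908 and 20681, then 22749, 34757 and 37963), with a log2 difference of 0.65 (limma adjusted p = 0.0247). Its call was not kept after quantile normalization (-0.057) or median centring (-0.16), where its sign turned, and was lost without wild-type-labelled array 1 or 2 or knockout-labelled array 2 or 3 (adjusted p from 0.0663 to 0.0901).

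Rpl39l, a copy of Rpl39 best known from male germ cells, had signals of 216, 271 and 290, then 97.6, 162 and 158, without overlap. The log2 difference was -0.92 ± 0.32 (limma adjusted p = 0.0374). Its call was lost without any of the 3 wild-type-labelled arrays or knockout-labelled array 1 (adjusted p from 0.0668 to 0.107). Rpl39, as given above, rose.

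Rps25, a small subunit protein used by some viral internal entry sites, had signals of 1327, 1499 and 1036, then 943, 758 and 468. The groups lay apart by a small gap, and the log2 difference was -0.87 ± 0.27 (limma adjusted p = 0.0236). Its call was lost without wild-type-labelled array 1 or 2 or knockout-labelled array 3 (adjusted p from 0.0608 to 0.0805), and after centring on other bright genes (adjusted p = 0.0592).

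Rps6, the target of the S6 kinases, had signals of 2113, 2101 and 2309 (mean 2174 ± 117, SD, n = 3), then 1047, 1652 and 1574 (mean 1424 ± 329, SD, n = 3). The groups did not overlap and array 1 was the lowest. The log2 difference was -0.64 ± 0.20 (limma adjusted p = 0.0245), lost without wild-type-labelled array 1 (0.0568) or 2 (0.0565) and after quantile normalization (0.125) or cyclic loess (0.145). The mean over all Rps6 probe sets, including a dim one that went the opposite way, gave 0.55 (adjusted p = 0.0528), so the direction for this gene rested on the probe set chosen.

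Of 9 listed copies of ribosomal protein genes, 6 were measured and 5 tested. Besides Rps4l and Rpl39l, Rps27l, a stress-inducible copy of Rps27, had signals of 8404, 8797 and 10091, then 8774, 6033 and 6949, which overlapped, with a log2 difference of -0.34 (limma adjusted p = 0.132). Rps27 had 0.14 (limma adjusted p = 0.673). Copies outside the symbol rule went both ways. Rpl7l1, whose product acts in assembly of the large subunit, fell (2507, 2421 and 2995, then 1504, 624 and 871), with a log2 difference of -1.49 (limma adjusted p = 0.00279). Rpl22l1, a copy of Rpl22, rose (10118, 8212 and 9121, then 10874, 17868 and 17046), with 0.71 (limma adjusted p = 0.0192). Its sign turned after median centring (-0.11), and its call was lost without wild-type-labelled array 2 or knockout-labelled array 2 or 3 (adjusted p from 0.0709 to 0.0779). The main copies Rpl7 and Rpl22 had 0.56 and 0.41, and Rpl22 did not pass.

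Several genes had probe sets that went opposite ways. Of the 92 tested probe sets, 41 rose and 8 fell, against 28.1% and 15.7% of all 27023 probe sets, with a median log2 difference of 0.56. Of the 19 genes with at least 2 tested probe sets, 8 had both signs. In 2, Rps10 and Rps3, probe sets were called in opposite directions in the fit over probe sets. The brightest probe sets of Rpl27, Rpl7, Rps3, Rps14 and Rpsa, which rose in the fit over genes, did not pass there (limma adjusted p from 0.0525 to 0.0578). Rpl27 had another probe set that was called lower. Probe sets of 1 gene share their target and are not replicates. By name ending, 14 of 26 ending in _a_at, 6 of 24 ending in _at, 21 of 39 ending in _x_at and none of 3 ending in _s_at rose, and 1, 5, 2 and none fell. Probe sets ending in _s_at or _x_at can also detect related transcripts.

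The largest difference of any member probe set was in Rps9, which encodes a protein of the small subunit body. Probe set 1434624_x_at gave signals of 12307, 10775 and 13103 (mean 12062 ± 1183, SD, n = 3), then 1080, 1427 and 1194 (mean 1234 ± 177). The groups lay far apart, with all 3 knockout-labelled arrays alike. The log2 difference was -3.29 ± 0.16 (9.81-fold, limma adjusted p = 6.36e-06), and it ran from -4.11 to -3.06 over 11 alternatives of scaling and of arrays used, with a call in each. The other tested Rps9 probe sets did not fall. Probe set 1433689_s_at gave 15720, 16672 and 19678, then 16852, 25961 and 26336 (log2 difference 0.39), and 1426958_at gave a log2 difference of 0.19. Which transcripts 1434624_x_at detects was not tested, since the probe sequences were not used here.

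For Rps10, probe set 1439374_x_at gave signals of 11333, 8174 and 17530, then 5806, 2715 and 5898. The groups lay apart, with a log2 difference of -1.38 ± 0.35 (limma adjusted p = 0.0131), and the call held in 10 of 11 alternatives. The 4 other bright Rps10 probe sets had log2 differences of 0.37 to 0.77. For Rps3, which lies at the entry of the messenger RNA channel, 1447563_at gave 80.0, 186 and 87.8, then 732, 872 and 739, with 2.83 ± 0.35 (limma adjusted p = 0.000398). Its wild-type-labelled signals lay near the filter. Probe set 1455600_at of Rps3 gave 1482, 1365 and 1691, then 887, 816 and 701, with -0.92 ± 0.18 (limma adjusted p = 0.00392). Both Rps3 calls were kept with any single array left out, and the brightest Rps3 probe set, 1435151_a_at, had 0.58.

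**Figure D4:**
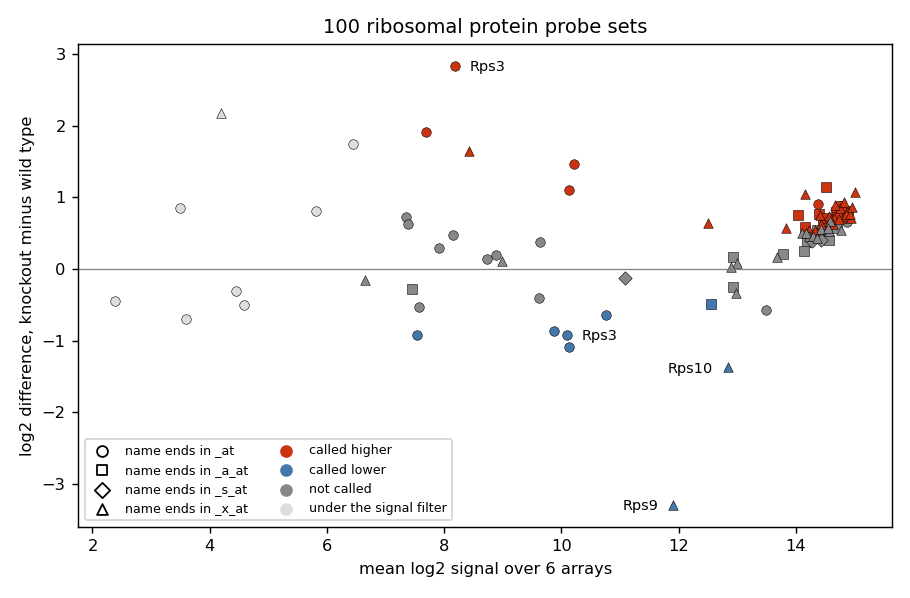
Log2 difference, knockout-labelled minus wild-type-labelled, of all 100 member probe sets against their mean log2 signal over the 6 arrays, with the shape giving the ending of the probe set name and the colour its call. Rps9 holds the lowest point, at -3.29, and Rps3 the highest, at 2.83, and for bright probe sets the positive direction turns under quantile normalization or median centring.

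The genes around the ribosomal proteins did not all move the same way. Among other messenger RNAs with a TOP tract, 5 of 18 rose and 1 fell, with a median log2 difference of 0.16. The share that rose and the median were close to those of all genes tested (27.9% and 0.14). Pabpc1, a poly(A) binding protein, had signals of 18786, 19873 and 19874, then 25476, 42729 and 50579, with a log2 difference of 0.96 (limma adjusted p = 0.00927). Tpt1 and Eef1a1, an elongation factor, rose by 0.95 and 0.91, with the lowest knockout-labelled value on array 1 in each. Vim, the intermediate filament vimentin, fell from 14220, 13762 and 18752 to 4809, 5078 and 5837, with -1.56 (limma adjusted p = 0.000119). After quantile normalization or median centring Pabpc1, Tpt1 and Eef1a1 were no longer called, while Vim was called lower in all 4 scalings.

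Fau encodes a ubiquitin-like protein fused to a ribosomal protein of the small subunit. Its signal was 12153, 13983 and 17852, then 17382, 29624 and 30403, which overlapped, with a log2 difference of 0.79 ± 0.24 (limma adjusted p = 0.0236). Its call was lost without wild-type-labelled array 1 or 2 or knockout-labelled array 2 or 3 (adjusted p from 0.0664 to 0.0898), and its sign turned after median centring (-0.03).

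Of 38 genes of RNA polymerase I and ribosome assembly, 1 rose and 13 fell, beside 27.9% and 20.8% of all genes tested, with a median log2 difference of -0.39 beside 0.14. Rrs1, which helps to bring the 5S particle into the growing large subunit, had signals of 3765, 3453 and 4048, then 1327, 596 and 760. The groups lay apart and the log2 difference was -2.15 ± 0.27 (limma adjusted p = 0.000258). Polr1d, a subunit of RNA polymerases I and III, fell from 7106, 6813 and 7465 to 3492, 3672 and 3368, with -1.02 (limma adjusted p = 0.000374). Nip7 and Nhp2, which act in the processing and modification of ribosomal RNA, fell by 0.90 and 0.74 on the log2 scale. These 4 calls held in all 4 scalings and with any single array left out. Of the 38 genes, 10, 31 and 9 were called lower after quantile normalization, median centring and cyclic loess. Of all genes tested, 21.1%, 47.9% and 20.8% were called lower there. After quantile normalization and cyclic loess the share of the list was thus little above that of all genes. Ncl, the nucleolar protein nucleolin, was the gene that rose (0.55, limma adjusted p = 0.0483), and its call was lost in 5 of the 6 fits with an array left out.

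Among 24 tested initiation factors, 1 rose and 5 fell, with a median log2 difference of 0.23. The share that fell was that of all genes tested (20.8%), and fewer rose than the 27.9% of all genes. Eif1a and Eif3b, which act at the scanning small subunit, had -0.75 and -0.58, and Eif5a, an elongation factor despite its name, had 0.53. Each of these calls was lost without wild-type-labelled array 1 or knockout-labelled array 2 or 3 (adjusted p of 0.0505 or more). After cyclic loess 7 of the 24 rose and none fell, beside 17.9% and 20.8% of all genes. After quantile normalization 4 rose and 2 fell, beside 17.6% and 21.1%. After median centring none rose in limma's test (none at an unadjusted p under 0.05) and 11 fell. Of all genes 8.48% rose and 47.9% fell there, so the share that fell was near that of all genes. The list median was 0.39, 0.17 and -0.58 in these scalings, thus negative only after median centring.

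Of 14 genes that control the output of ribosomal proteins, 2 rose and 4 fell, beside 27.9% and 20.8% of all genes tested, with a median of -0.17 beside 0.14. Whether the shares in so short a list differ from those of all genes was not tested. Myc, a transcription factor that drives ribosome production, had signals of 3232, 3592 and 3347, then 2366, 1632 and 2183, without overlap, with a log2 difference of -0.73 (limma adjusted p = 0.00769). Mtor, the kinase that acts on TOP messenger RNAs, fell from 1318, 1309 and 1367 to 904, 905 and 794, with -0.62 (limma adjusted p = 0.01). Rheb, its activator, fell from 7067, 5763 and 6948 to 4276, 3056 and 3452, with -0.88. Myc, Mtor and Rheb were called lower in all 4 scalings and with any single array left out. Rps6kb2, an S6 kinase gene, rose from 467, 469 and 499 to 971, 1097 and 1032, with 1.11 (limma adjusted p = 0.000762), a call that was lost after median centring (0.30, adjusted p = 0.345).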

How the data were processed

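RNA of 3 wild-type and 3 Eklf knockout samples was measured on 1 array each, and groups were taken from the labels. The deposited values are linear intensity values per probe set, for which the submitters' processing notes name MAS5 and the Affymetrix Expression Console without a version. In the deposited table every array has a trimmed mean of 500, which leaves bright and dim probe sets free to shift between arrays. The labels call the RNA samples independent, and the p-values measure the spread between these samples.

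A floor of 1 was applied to 303 values before the log2 transform. The annotation listed 34958 probe sets with 1 gene, and symbols were updated through RefSeq. The 64 control probe sets were left out of the tests. Each gene was taken at its brightest probe set, genes under the 40th percentile of mean log2 signal were left out, and 12799 genes were tested with limma 3.58.1 in R 4.3.3 (lmFit, eBayes with a variance trend, two-sided, no covariate), with Benjamini-Hochberg adjustment over all of them and a threshold of 0.05. Probe sets were tested the same way over all 27023 that passed. An exact permutation test of 3 against 3 arrays cannot go below p = 0.1. The test was checked on simulated data with the spread of these arrays. It recovered 28% and 34% of genes with simulated log2 changes of -1 and 1. For changes of -2 and 2 it recovered 60% and 74%. Far fewer genes were changed there than were called here, which makes the adjustment stricter. A gene that did not pass may thus still differ.

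The members and the gene lists were chosen with earlier results of these data known. Named were the 10 called genes with the largest increase, the called genes with a decrease, the copies of ribosomal protein genes with their main copies, called genes of the disease, stalk and fusion lists, genes with probe sets called in opposite directions, up to 4 genes of each other list, and Klf1 with erythroid markers. Other names were added after their values were seen: Rps9, Rps19, Rpl11, Rpl12, Rps3a1, Ncl and the remaining called members. Some listed genes are not reported here. Same-numbered arrays deviated together only weakly (correlations of 0.081, 0.036 and 0.090). Arrays with different numbers had correlations of -0.10 to 0.016. The labels call the samples independent, and the numbers were not used as pairs. Alternatives covered scaling, offset, filter, variance model, array weights, choice of probe set, the replicate block, symbols, thresholds and each array left out. Centring on other bright genes and a fit with knockout-labelled array 1 alone were chosen after seeing the data. Plots came from Python 3.11.15 with matplotlib 3.10.9.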

Additional observations from a re-analysis of the deposited data

How the results depend on the processing

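On the deposited scale 26 ribosomal protein genes rose and 4 fell. The number that rose was 5 after quantile normalization, 0 after median centring, 16 without the variance trend, 41 of 92 with every probe set as a feature (26 of 44 for genes), 6 at an adjusted p under 0.01, 3 with a 2-fold threshold added and 0 (5 at an unadjusted p under 0.05) with knockout-labelled array 1 alone, where the spread comes from the wild-type-labelled arrays only. The number that fell was 8 of 92 with every probe set, 1 at an adjusted p under 0.01, 1 with the 2-fold threshold and 2 with array 1 alone. Leaving out 1 array gave 9 to 36 that rose and 1 to 4 that fell. Of all genes tested, 21.8% to 27.1% rose and 16.3% to 21.4% fell in these fits. Medians of the 44 ribosomal protein genes, of the large and of the small subunit genes were -0.070, -0.031 and -0.11 after quantile normalization. They were -0.21, -0.26 and -0.19 after median centring. With array 1 alone they were 0.16, 0.19 and 0.12. Leaving out 1 array moved the median of the 44 ribosomal protein genes between 0.48 and 0.82. Other scalings, offsets, filters, array weights, the robust prior, the platform symbols and the other choices of probe set kept both counts within 1.5 times of the reported ones. With the replicate number as a block, 31 rose and 4 fell, and all 30 calls were kept. Whether the numbers pair the samples was not settled.

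Among 25 named genes, signs turned under 29 of the gene and setting combinations. After quantile normalization the log2 differences were -0.23 for Rpl22, -0.15 for Rpl27, -0.0073 for Rpl4, -0.075 for Rpl7, -0.057 for Rps10, -0.096 for Rps24, -0.16 for Rps27, -0.057 for Rps4x and -0.028 for Rps7. After median centring they were -0.41 for Rpl22, -0.29 for Rpl27, -0.0081 for Rpl4, -0.26 for Rpl7, -0.018 for Rplp2, -0.099 for Rps10, -0.075 for Rps20, -0.19 for Rps24, -0.68 for Rps27, -0.16 for Rps4x and -0.097 for Rps7. Rps27 was at -0.15 after cyclic loess, and between -0.032 and 0.34 with 1 array left out, with negative values without wild-type-labelled array 2 or knockout-labelled array 2 (-0.030), and -0.072 with array 1 alone. The mean of probe sets gave -0.10 for Rpl22 and 0.55 for Rps6. Without probe sets ending in _s_at or _x_at, Rpl22 was at -0.57 and Rps20 at -0.53, and with array 1 alone Rpl22 was at -0.034. The cause was not tested. The number of arrays, 3 per group, and the brightness gap between arrays limit these results.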

Other observations

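Of the probe sets that list several genes, 110 include at least 1 gene with a matching symbol, and so cover genes such as Rpl5, Rps12 and Rplp1 that have no probe set of their own. Of these, 102 passed the filter and 48 rose, 4 fell and 50 did not pass in limma's fit over probe sets. Of all 27023 probe sets in that fit, 28.1% rose and 15.7% fell. The difference was positive in 92 and negative in 10, with a median log2 difference of 0.61, a range of -1.74 to 1.60, and a median of 0.32 over all probe sets tested. They share the arrays and the scaling of the members and are no independent support, and no single gene can be read from them.

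Further member probe sets differed from the brightest one of their gene. For Rps24, probe set 1455195_at gave signals of 147, 124 and 67.1, then 403, 340 and 471, with a log2 difference of 1.91 (limma adjusted p = 0.0037), against 0.63 at the brightest probe set. For Rpl37a, 1416218_x_at gave 1.64 (limma adjusted p = 0.00766), against 0.54, and it was no longer called after median centring. For Rpl27, 1448217_a_at gave -0.49 (limma adjusted p = 0.029), against 0.53, and was called in 5 of 11 alternatives. Rpl14, whose protein sits on the surface of the large subunit, had signals of 908, 880 and 905, then 723, 661 and 656, which did not overlap, with a log2 difference of -0.40 that did not pass (limma adjusted p = 0.0656).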
